A study of Arabidopsis thaliana with 9 samples.

Results

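AGL24 (AT4G24540), AGL19 (AT4G22950), AGL42 (AT5G62165) and FD (AT4G35900) are 4 Arabidopsis thaliana genes known to promote flowering, and they were chosen for that known role, with earlier results of these data known, so shares of all probe sets given beside their counts are a background and no test. Each had 1 probe set annotated to that gene alone, so the 4 genes were represented by 4 of the 22746 probe sets tested, and by 4 of the 13355 genes with a named probe set. RefSeq places AGL24, AGL19 and FD on chromosome 4 and AGL42 on chromosome 5. No genome build is given for the array values, so coordinates are not reported.

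Transcript signals came from whole seedlings of the accession Landsberg erecta (Ler), which carries a mutation in the ERECTA gene, after 18 days on MS medium under 8 h of light and 16 h of darkness with no further treatment. All 3 genotypes share this accession and growth: wild type Ler, ebs and shl-2, the last also written shl-2-2 in the sample sources. Each genotype had 3 arrays, 9 in all, each from its own pool of plants, and the number of arrays limits the precision of all values. The series describes both mutants as lacking expression of the mutated gene, EBS or SHL, and adds no transgene or other allele.

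AGL24, AGL19 and AGL42 encode MADS-box transcription factors. AGL24 acts in the shoot apical meristem together with the related factor SOC1, and both activate the floral identity gene LFY. AGL19 promotes flowering in a route that is separate from the repressor FLC, and the gene is held silent by Polycomb proteins. AGL42 belongs to the SOC1-like group with AGL71 and AGL72 and is also known for expression in the quiescent centre of the root. FD is a bZIP factor of the shoot apex that binds the mobile protein FT, and the complex activates floral identity genes. EBS and SHL encode related proteins that read histone methylation, and loss of either is known to advance flowering. In bulk seedlings, a transcript that is higher in more cells cannot be told apart from one that is higher per cell.

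The arrays had median log2 signals of 6.06 to 6.12. Signals of SHL, listed as SHL1, were 7.46, 6.91 and 6.52 on the shl-2 arrays, below all wild type arrays (7.88, 8.02 and 7.88) and all ebs arrays (8.08, 7.82 and 7.81). They still lay above the array medians, and the site of the mutation relative to the probes is not given here. EBS was not analysed here. The 8 measured photosynthesis genes had wild type signals from percentile 99.5 of all probe sets upwards. This shows green tissue and cannot tell whole seedlings from other green parts.

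AGL24 was the 1 member of the 4 that passed in ebs at a limma adjusted p under 0.05, and it did not pass in shl-2. Its mean signal in ebs was 4.19-fold that of wild type. On the log2 scale the wild type arrays read 3.97, 3.94 and 3.88, the ebs arrays 5.88, 6.68 and 5.43, and the shl-2 arrays 4.07, 4.1 and 4.36. Every ebs array was thus above every other array, and the lowest ebs array exceeded the highest wild type array by 1.46. Each shl-2 array also lay above each wild type array, by a gap of 0.10 at the closest pair.

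**Figure D1:**
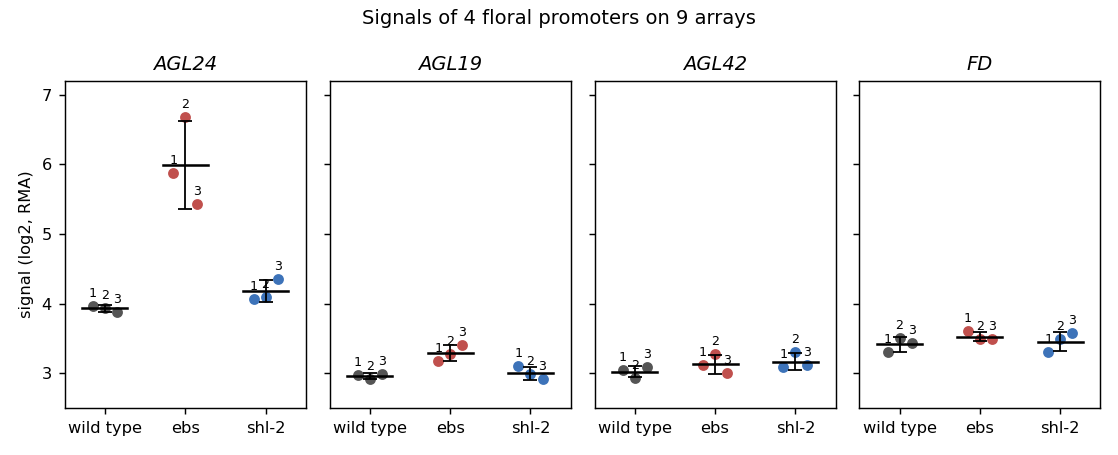
Log2 RMA signal of each gene (y axis) by genotype (x axis); points are single arrays with their replicate number, long bars are means and error bars are SDs over 3 arrays. AGL24 lies between 5.43 and 6.68 on the ebs arrays and between 3.88 and 4.36 on the other 6 arrays, while AGL19, AGL42 and FD stay between 2.91 and 3.60 on all 9.

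The AGL24 signal rose in ebs relative to wild type by 2.07 on the log2 scale (SE 0.25, n = 3 against 3, limma adjusted p = 0.00241), and the 95% interval of the fold was 2.86 to 6.13. This SE and interval share 1 spread over the 3 genotypes, while the SDs were 0.05 in wild type, 0.63 in ebs and 0.16 in shl-2. With only the wild type and ebs arrays fitted, the SE was 0.27 and the limma adjusted p was 0.0134. An exact two-sided permutation test of the same arrays gave p = 0.1, the smallest value that 3 against 3 arrays allow. The change ranked 12 from the top among all 22746 probe sets and 9 among named genes, 2.82% of which were called in either direction. AGL24 was the 1 member of 4 called higher at an adjusted p under 0.05, against a background of 1.72% of probe sets called higher in this comparison. The call held in all 9 fits that left out 1 array, where the log2 difference ranged from 1.73 to 2.35, and the limma adjusted p was at most 0.0151.

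The ebs arrays differed among themselves. Set against the wild type mean of 3.93 ± 0.05 (SD, n = 3), the fold was 3.86 on ebs array 1, 6.73 on ebs array 2 and 2.83 on ebs array 3. The SD over the ebs arrays, 0.63 around a mean of 5.997, was larger than that of 98.9% of probe sets in ebs. In log2 units these were 1.95, 2.75 and 1.5, each larger than the range of 0.09 over the wild type arrays. Among all probe sets on its own array, the AGL24 signal stood at percentiles 24.1 to 27.0 in wild type and 42.9 to 57.7 in ebs, so it moved from the dim part of the array to about the middle.

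In shl-2 the AGL24 mean was 4.18 ± 0.16 (SD, n = 3), a log2 difference of 0.25 from wild type (SE 0.25, 95% interval -0.30 to 0.80, limma adjusted p = 0.666). This did not pass, and the 95% interval of the signal ratio reached 1.74. AGL24 stood at percentiles 24.1 to 27.0 on the wild type arrays and 28.5 to 32.1 on the shl-2 arrays. The interval is thus a limit on a dim signal and sets none on the transcript. None of the 4 members was called in shl-2 against wild type, where 5.43% of all probe sets were called by the limma adjusted p (2.44% higher and 2.99% lower, and 4.44% of named genes), and 0 of 4 had an unadjusted p under 0.05, against 18.7% of probe sets. Non-overlapping arrays with a higher mutant, as AGL24 had, were found for 7.94% of all probe sets. The SE of this comparison takes in the wide spread of the ebs arrays. With only the wild type and shl-2 arrays fitted, the SE was 0.10 and the limma adjusted p was 0.244.

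The direct comparison of the mutants tested whether AGL24 differed between them. Its log2 signal in shl-2 minus that in ebs was -1.82 (SE 0.25, limma adjusted p = 0.0101), which is a 3.53-fold difference with a 95% interval of 2.41 to 5.17. It was the 1 member of 4 called, and it was lower in shl-2. Of all probe sets 0.769% were called in this comparison, 0.268% higher and 0.501% lower, and of named genes 0.629%. AGL24 ranked 10 from the lowest among all probe sets. The call was lost without shl-2 array 1 (log2 difference -1.77, limma adjusted p = 0.0511) and when the wild type arrays were left out of the fit (limma adjusted p = 0.0575).

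For AGL19 the log2 signals were 2.97, 2.91 and 2.99 on the wild type arrays, 3.18, 3.28 and 3.41 on the ebs arrays and 3.10, 2.99 and 2.91 on the shl-2 arrays. All 3 ebs arrays were above the other 6 arrays, while shl-2 and wild type overlapped. The difference between ebs and wild type was 0.33 on the log2 scale (SE 0.08, 95% interval 0.15 to 0.52), a fold of 1.26, and it did not pass (limma unadjusted p = 0.00241, adjusted p = 0.0625). An exact permutation test gave p = 0.1, and with trended and robust variances the limma adjusted p was 0.0384. AGL24 and AGL19 had an unadjusted p under 0.05 in this comparison, 2 of 4 members against 16.9% of probe sets. AGL24 and AGL19 were the 2 of 4 members whose ebs arrays all exceeded the wild type arrays, against 7.34% of all probe sets (12.6% lay wholly below wild type, none of the members among them).

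Between the mutants AGL19 read -0.29 on the log2 scale, shl-2 minus ebs (SE 0.08, limma adjusted p = 0.193), and shl-2 minus wild type read 0.04 (SE 0.08, 95% interval -0.14 to 0.23, limma adjusted p = 0.841). Arrays of both mutants did not overlap for AGL24 and AGL19, with shl-2 the lower group, as for 7.13% of all probe sets (6.85% with shl-2 the higher group), and the same 2 of 4 members had an unadjusted p under 0.05, against 10.7% of probe sets. The AGL19 signal was among the dimmest of every array, at percentiles 3.46 to 15.4. The deposited values hold no call of detection, so a signal this low cannot be told apart from the array's background, and a log2 difference there may understate a change in transcript.

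AGL42 gave log2 signals of 3.04, 2.93 and 3.09 on the wild type arrays, 3.11, 3.27 and 3.00 on the ebs arrays and 3.09, 3.30 and 3.11 on the shl-2 arrays. The 3 genotypes overlapped, or touched at 3.09 in the case of shl-2 and wild type. Neither mutant passed against wild type: the log2 differences were 0.11 in ebs (SE 0.09, 95% interval -0.10 to 0.32, limma adjusted p = 0.631) and 0.15 in shl-2 (SE 0.09, 95% interval -0.06 to 0.36, limma adjusted p = 0.456). Between the mutants the log2 difference was 0.04 (SE 0.09, limma adjusted p = 0.929). Exact permutation tests gave p = 0.4, 0.2 and 0.7 in these comparisons. The 95% intervals of the signal ratio reached 1.24 in ebs and 1.28 in shl-2. Its percentiles on the arrays were 4.18 to 14.3, as low as those of AGL19, so these limits are on the signal and set none on the transcript.

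For FD the wild type arrays read 3.30, 3.51 and 3.44 on the log2 scale, the ebs arrays 3.60, 3.49 and 3.49, and the shl-2 arrays 3.30, 3.49 and 3.57. The arrays of all 3 genotypes overlapped, and the largest gap between any 2 arrays was 0.30. Log2 differences from wild type were 0.11 in ebs (SE 0.09, 95% interval -0.09 to 0.31, limma adjusted p = 0.605) and 0.04 in shl-2 (SE 0.09, 95% interval -0.17 to 0.24, limma adjusted p = 0.883), and shl-2 minus ebs was -0.07 (SE 0.09, limma adjusted p = 0.843). The exact permutation p-values were 0.3, 0.8 and 0.6. The 95% intervals of the signal ratio reached 1.24 in ebs and 1.18 in shl-2. FD stood at percentiles 12.8 to 19.7 of the arrays, so these too are limits on a dim signal only.

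**Figure D2:**
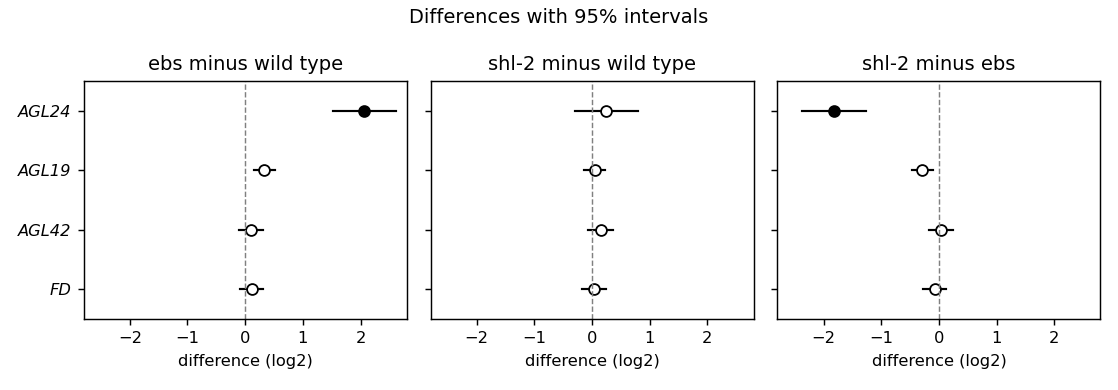
Log2 difference of each gene (x axis) in the 3 comparisons (panels); points are limma estimates from 3 arrays a group, lines are 95% intervals and filled points passed at an adjusted p under 0.05. Filled points are AGL24 at 2.07 in ebs against wild type and at -1.82 in shl-2 against ebs, and all intervals of AGL42 and FD span 0.

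Side by side, the 4 members had positive log2 differences from wild type in ebs (median 0.22) and in shl-2 (median 0.10). Over all probe sets the medians were -0.02 and -0.03, and 43.6% and 42.1% of values were positive. Both comparisons use the same wild type arrays. The signals of AGL19, AGL42 and FD are dim, so the direction of their small differences is uncertain. In shl-2 the AGL19 and FD differences turned negative in some fits that left out 1 array (lowest -0.0067 and -0.022).

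The other genes of the flowering pathways that could be read were few. Of 37 other promoters listed, 3 had a named probe set, and none passed in any comparison by limma's adjusted p or at an unadjusted p under 0.05 (0 of 3 each). They were AGL71 and AGL72, which act with AGL42 (log2 differences from wild type of -0.05 and 0.04 in ebs, -0.16 and -0.14 in shl-2), and GI, a circadian clock gene that activates CO (0.03 in ebs and -0.11 in shl-2). The wild type means of AGL71 and AGL72 stood at percentiles 16.6 and 5.16 of all probe sets, so their values describe dim signals and set no limit on the transcript. Over all probe sets 3.19% were called in ebs, 5.43% in shl-2 and 0.769% between the mutants. At an unadjusted p under 0.05 the shares were 16.9%, 18.7% and 10.7%. Of 34 repressors listed, 4 were measured. SMZ, an AP2-type factor, fell by 0.62 on the log2 scale in ebs (SE 0.14, limma adjusted p = 0.0491) and read -0.49 in shl-2 (limma adjusted p = 0.088). It was the 1 of 4 measured repressors called in ebs, against 3.19% of all probe sets (1.47% lower), with a list median of -0.10, and 7 of the 9 fits that left out 1 array lost the call (highest limma adjusted p = 0.166). In shl-2 0 of the 4 repressors passed, with a median of -0.23. At an unadjusted limma p under 0.05 there were 2 of 4, against 18.7% of all probe sets.

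Of 4 measured genes in the autonomous pathway list, 0 passed by limma in either mutant, against 3.19% of all probe sets in ebs and 5.43% in shl-2. At an unadjusted p under 0.05 there were 1 in ebs and 0 in shl-2, against 16.9% and 18.7% of all probe sets. The KH-domain gene PEP had the smallest p, with a log2 difference of -0.21 in ebs (SE 0.08, limma adjusted p = 0.232). Its place in this list does not give the direction in which it acts on FLC. FD's partners were represented by 1 of 25 listed, ATC, a relative of FT and TFL1, at -0.08 in ebs and -0.04 in shl-2 on the log2 scale (limma adjusted p = 0.827 and 0.924). The bZIP factor EEL, of the same group A as FD, differed by 0.01 and -0.02 (limma adjusted p = 0.967 and 0.942). The list of Polycomb and chromatin regulators held 1 measured gene, SHL1, whose log2 difference in shl-2 was -0.96 (SE 0.19, limma adjusted p = 0.0182). That call was lost without wild type array 2 or 3 or shl-2 array 2 (highest limma adjusted p = 0.0772).

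**Figure D3:**
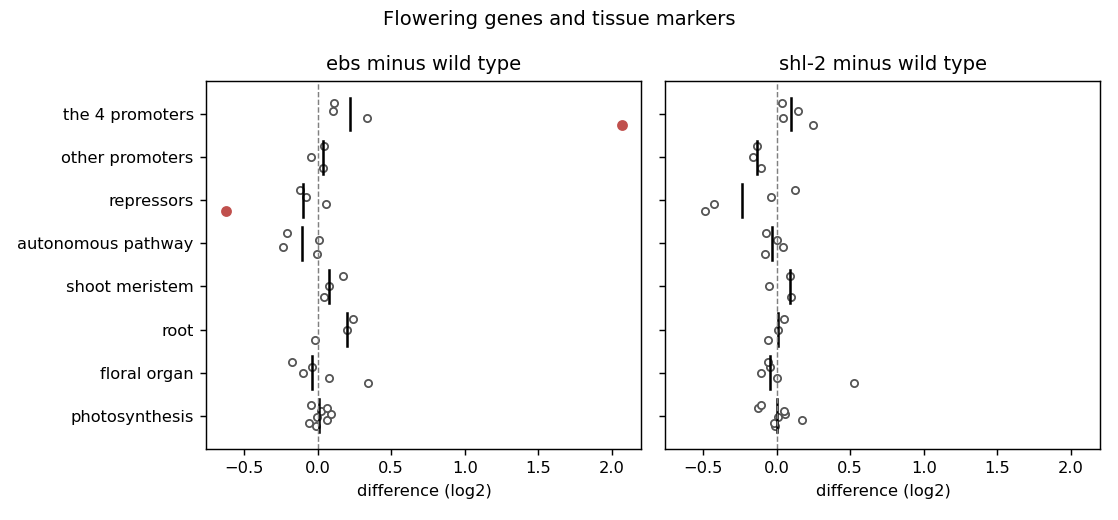
Log2 difference from wild type (x axis) for each measured gene of the lists (rows), in ebs and in shl-2; circles are genes, filled red circles passed limma at an adjusted p under 0.05 and vertical bars are list medians. AGL24 in ebs stands alone at 2.07, and the filled circle below 0 in ebs is SMZ at -0.62.

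Because the 4 genes are active in small tissues, markers of those tissues were read on the same arrays. Of 18 shoot meristem markers, 3 were measured, CLV3, LAS and UFO, all dim (percentiles 12.7 to 20.6 in wild type). Their mean log2 signal was 3.48 to 3.56 on the wild type arrays, 3.60 to 3.65 in ebs and 3.46 to 3.65 in shl-2. The mean of the 3 was higher on all ebs arrays than in wild type. Singly, 0 of 3 had ebs arrays wholly above wild type, against 7.34% of all probe sets. By limma 0 of 3 passed in either mutant, against 3.19% in ebs and 5.43% in shl-2. At an unadjusted p under 0.05 there were 0 of 3, against 16.9% and 18.7%. With 3 dim genes, counts of 0 are near these shares and set no limit on the tissue. The smallest p was that of UFO, which helps specify floral meristems, at 0.17 in ebs (SE 0.11, limma adjusted p = 0.471). The part of shoot meristem tissue in the AGL24 result was not tested.

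Of 27 root markers 3 were measured, with means of 4.27 to 4.54 in wild type, 4.51 to 4.63 in ebs and 4.44 to 4.45 in shl-2. None passed by limma in ebs (1 of 3 at an unadjusted p under 0.05) or in shl-2 (0 of 3). Over all probe sets the shares at an unadjusted p under 0.05 were 16.9% in ebs and 18.7% in shl-2. The shares called by the limma adjusted p were 3.19% and 5.43%. The root hair expansin gene EXPA18 had the smallest p, with a log2 difference of 0.24 in ebs (SE 0.08, limma adjusted p = 0.158). The median of the root list in ebs was 0.20, in the same comparison in which AGL19 read 0.33, and its part in that value was not tested. Of 23 floral organ markers 5 were measured, with means of 3.77 to 3.97 in wild type, 3.84 to 3.91 in ebs and 3.85 to 4.01 in shl-2. Of these 0 passed by limma in ebs or in shl-2. At an unadjusted p under 0.05 there was 1 of 5 in each, against the same 16.9% and 18.7% of all probe sets. SPT, a carpel and leaf growth gene, had the smallest p at 0.53 in shl-2 (SE 0.15, limma adjusted p = 0.0797). It read 0.34 in ebs (limma adjusted p = 0.289). The median of the floral organ list was -0.04 in each mutant, with 3 of 5 genes below 0 in each. Photosynthesis markers (8 of 41 measured) averaged 13.40 to 13.47 in wild type, 13.40 to 13.49 in ebs and 13.35 to 13.50 in shl-2, with 0 of 8 called by limma and 0 of 8 at an unadjusted p under 0.05 against wild type. Their smallest p came from the direct comparison, for the Calvin cycle gene SBPASE at -0.19 (SE 0.07, limma adjusted p = 0.386).

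The genes whose log2 signals followed each member most closely over the 9 arrays were sought among 13354 other named genes by Pearson's r, as a description of arrays that share genotypes. For AGL24 they were AT5G12880 (r = 0.982), AT1G65370 (r = 0.974) and AT1G03820 (r = 0.972), and 51 genes reached r = 0.9. The log2 signals of AT1G65370 were 3.86, 3.72 and 3.98 on the wild type arrays, 5.21, 5.94 and 5.25 on the ebs arrays and 3.99, 3.62 and 3.92 on the shl-2 arrays. Those of AT1G03820 were 5.89, 6.20 and 6.04 on the wild type arrays, 7.08, 7.39 and 6.65 on the ebs arrays and 5.84, 6.08 and 6.20 on the shl-2 arrays. Both had ebs array 2 as their highest array, as AGL24 did, which their choice by r over these arrays favours.

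The choice by r also favours genes that differ in ebs, so their values are a description. In ebs AT1G65370 rose by 1.61 on the log2 scale (SE 0.18, limma adjusted p = 0.00184) and AT1G03820 by 1.00 (SE 0.17, limma adjusted p = 0.0146), with shl-2 differences of -0.01 and -0.00 (limma adjusted p = 0.99 and 0.995). AT5G12880 rose by 0.39 (SE 0.09, limma adjusted p = 0.0441). The AT1G65370 call in ebs held in all 9 fits that left out 1 array. AT1G03820 lost its call when array 3 of the wild type or array 1 of ebs was left out (highest limma adjusted p = 0.0677), and AT5G12880 kept its call only without ebs array 3 (highest limma adjusted p = 0.144).

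**Figure D4:**
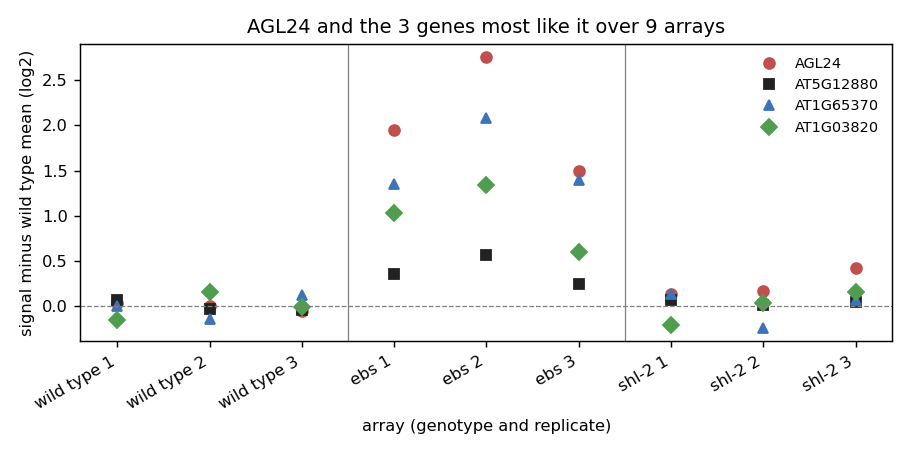
Log2 signal minus the gene's wild type mean (y axis) on each of the 9 arrays (x axis, genotype and replicate) for AGL24 and the 3 named genes with the highest Pearson r. All 4 genes are above 0 on the 3 ebs arrays with their highest point on ebs array 2, where AGL24 reaches 2.75, and the highest AGL24 value on a shl-2 array is 0.43.

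The other members had looser company. AGL19 was followed most closely by AT5G66150 (r = 0.952), AT5G43920 (r = 0.944) and AT5G55560 (r = 0.942), and 11 genes reached r = 0.9. Of these 3, AT5G55560 rose in ebs by 0.69 on the log2 scale (SE 0.14, limma adjusted p = 0.0344, lost in 6 of the 9 fits that left out 1 array, highest 0.127). AGL42 had AT4G03900 (r = 0.937), AT1G22700 (r = 0.914) and AT3G14410 (r = 0.904), and these 3 were the genes that reached r = 0.9. FD had AT2G35310 (r = 0.951), AT5G26970 (r = 0.923) and AT1G24420 (r = 0.910) among 6. None of the genes closest to AGL42 or FD passed limma in any comparison. Over the 9 arrays AGL42 spanned 0.37 and FD 0.30 on the log2 scale, so these likenesses rest on small differences.

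The genes next to each member were read to show whether its signal moved with its surroundings. Of the 10 named genes measured nearest to AGL24, 5 on each side, 0 passed limma in any comparison, and their log2 differences in ebs ran from -0.31 to 0.07 with a median of -0.02. The nearest on either side, AT4G24530 and AT4G24550, read 0.05 and -0.04 in ebs. Around AGL19 the neighbours ran from -0.47 to 0.30 in ebs, with 0 of 10 called (lowest limma adjusted p = 0.065, for the adjacent AT4G22960 at -0.47). The ranges in ebs were -0.22 to 0.23 around AGL42 and -0.16 to 0.24 around FD, again with 0 of 10 called each. Over all named genes 2.82% were called in ebs, 4.44% in shl-2 and 0.629% between the mutants. A count of 0 of 10 is near these shares, so it says little about the surroundings of a member.

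**Figure D5:**
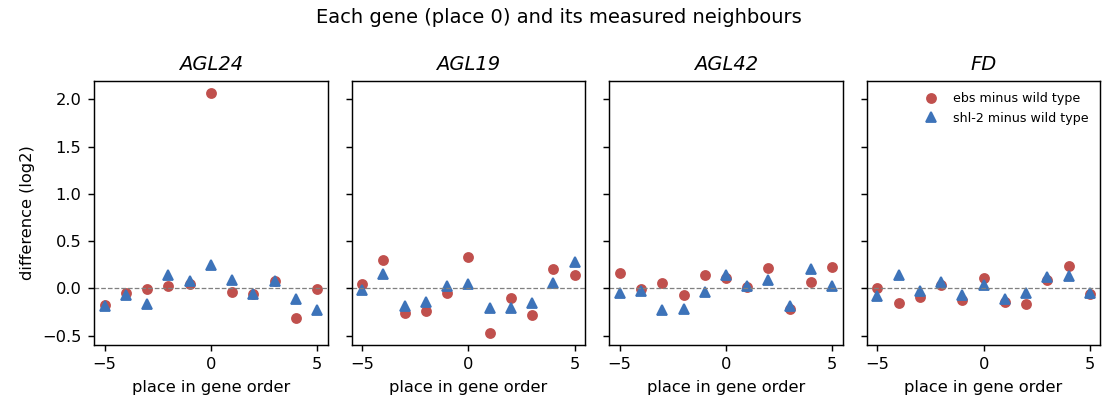
Log2 difference from wild type (y axis) of each member, at place 0, and of the 5 measured named genes on each side in RefSeq gene order (x axis); red circles are ebs and blue triangles are shl-2. AGL24 stands at 2.07 in ebs between neighbours of -0.31 to 0.07, while the AGL19, AGL42 and FD values lie at or close to the range of their neighbours.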

How the data were processed

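Per the submitters' processing notes, affy's RMA gave the deposited log2 signal of each probe set. The sources used here give neither its version nor a filter. Labelled RNA was made from 500 ng of total RNA per the labels' protocols. Of 22810 probe sets, 64 controls were left out. Probe sets were named through the platform annotation and RefSeq (TAIR10.1): 13513 named 1 gene, 503 several, and 8730 are unnamed here. Genotype means were fitted over all 9 arrays with limma 3.58.1 in R 4.3.3 (lmFit, contrasts.fit, eBayes at defaults), two-sided, with Benjamini-Hochberg adjustment over 22746 probe sets per comparison and calls at an adjusted p under 0.05. Errors are limma SEs or SDs. The fit was run on simulated normal data, with a single spread per probe set for all genotypes and independent arrays. That run does not cover unequal spreads, as AGL24 has, or arrays that deviate together. No array pair was identical (0 pairs).

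Members, lists and the naming rule were chosen with earlier results of these data known. Besides the members and SHL1, the rule named list genes that passed with arrays that did not overlap, otherwise the gene of smallest p, and the 3 genes most like each member; neighbours, AGL71 and AGL72 were added after their values were seen. A wider gene family list is not reported here. P-values measure the spread between pools described as independent biological samples. Same-numbered wild type and shl-2 arrays deviated together from their group means (r = 0.171 to 0.405 for 3 pairs), while differently numbered ones reached at most 0.146. For wild type and ebs (-0.108 to 0.46) and for ebs and shl-2 (-0.285 to 0.228), 2 of 3 same-numbered pairs were over 0.1, short of every pair. Differently numbered arrays of these groups reached 0.459 (wild type 1 and ebs 3) and 0.414 (ebs 3 and shl-2 1). The labels state no pairing and these values establish none, so the main fit used none.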

Additional observations from a re-analysis of the deposited data

How the results depend on the processing

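The 12 member differences were recomputed under up to 17 alternatives each, 195 values in all. Of these, 186 kept their direction and their side of the threshold, among them all 12 with the replicate number as a block: with the replicate block AGL24 in ebs was 2.07 (SE 0.24, limma adjusted p = 0.00299). AGL24 in ebs kept its call under all of its alternatives, with log2 differences of 1.97 to 2.08 where no array was left out. With the dimmest 30% left out, AGL24 stayed in through its ebs arrays (percentile 48.9, against 26.2 in wild type and 30.1 in shl-2), so its call there is no support. AGL24 between the mutants was -1.82 with only the compared groups fitted (limma adjusted p = 0.0575) and ran from -2.10 to -1.48 with 1 array left out. AGL19 in ebs, 0.33, passed with trended and robust variances (limma adjusted p = 0.0384). AGL19, AGL42 and FD lie in the dimmest 30% of probe sets and have no value with that filter. Small differences turned direction when 1 array was left out: AGL19 in shl-2 ran from -0.0067 to 0.088, FD in shl-2 from -0.022 to 0.11, AGL42 between the mutants from -0.027 to 0.11, and FD between them from -0.13 to 0.0033, with no call.

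Counts of called probe sets depended more on the setting. In ebs against wild type (726 called) array weights gave 1129, 1 probe set per named gene 370, an adjusted p under 0.01 212 and a 2-fold minimum 144. In shl-2 against wild type (1235 called) the last 3 gave 568, 530 and 200. Between the mutants (175 called) array weights gave 364, the compared groups alone 112, and the last 3 gave 84, 51 and 45. With 1 array left out the counts ran from 264 (without ebs array 1) to 838, from 677 (without wild type array 2) to 1229, and from 64 (without ebs array 1) to 190. They fell by over 1.5 times also without wild type array 2 (265), wild type array 3 (416) or ebs array 3 (306) in ebs, without wild type array 3 (803) in shl-2, and without ebs array 3 (98), shl-2 array 1 (84) or shl-2 array 2 (104) between the mutants.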

Other observations

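AGL24 and AGL19 lie near EBS on chromosome 4 in RefSeq gene order, and FD lies nearer to SHL1, which was looked at after the values were seen and was not tested. Of the 113 measured named genes between EBS and AGL24, 8 passed limma in ebs against wild type (7.08%), 6 in shl-2 against wild type (5.31%) and 1 between the mutants (0.885%). The 40 between EBS and AGL19 are among these 113, so they are no separate observation: 4 passed in ebs (10%), 3 in shl-2 (7.5%) and 0 between the mutants. Over all named genes the shares were 2.82% in ebs, 4.44% in shl-2 and 0.629% between the mutants. Between SHL1 and FD there were 127, of which 3 passed in ebs (2.36%), 9 in shl-2 (7.09%) and 0 between the mutants. Of the 695 between AGL24 and SHL1, which leave out the stretch from EBS to AGL24, 31 passed in ebs (4.46%), 46 in shl-2 (6.62%) and 3 between the mutants (0.432%). Of the 681 between EBS and FD, 5.43% passed in ebs, 6.31% in shl-2 and 0.734% between the mutants. Shares above those of all named genes in ebs and in shl-2 were thus not particular to the stretch next to EBS. Both mutants share the wild type arrays. The 10 genes nearest to AGL24 and the 10 nearest to AGL19 were not among those called.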
